A study of Mus musculus with 18 samples.

Results

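The 8 genes described here encode proteins that decide how long AU-rich and stem-loop messenger RNAs last in a cell, and they were chosen by name: *Zfp36*, *Zfp36l1*, *Zfp36l2*, *Zc3h12a*, *Rc3h1*, *Elavl1*, *Khsrp* and *Hnrnpd*. They are 8 of 56748 genes listed, of which 27701 had a count in at least 1 library and 13691 had enough counts to be tested. Each of the 8 was among the tested genes. RNA was taken from RAW264.7, an established mouse macrophage line, in 18 libraries that make up 6 conditions of 3. Control cells received no agent, and the TBHQ group was exposed to tert-butylhydroquinone, a phenolic antioxidant, at 5 µM for 4 h. The LPS group received the bacterial cell wall component lipopolysaccharide at 0.1 µg/mL for 12 h, and the PIC group received poly I:C, a mimic of viral RNA, at 20 µg/mL for 12 h. In LPS + TBHQ and PIC + TBHQ, cells had TBHQ at the same dose for 4 h before the same stimulus was given for another 12 h. For these libraries the study's methods do not say whether TBHQ was removed before the stimulus. Nor do they say whether the LPS and PIC groups had a matching 4 h wait, so total time may differ between a stimulus with and without TBHQ. Because TBHQ alone ended at 4 h and the stimuli at 12 h, agent and time cannot be told apart against the control. The study's methods give no harvest time for the control, while a figure caption lists media only beside the 12 h stimuli. A group that had TBHQ for the longer time without a stimulus was not analysed here. TBHQ was dissolved in DMSO, while the control is described as untreated and no DMSO is named for the LPS and PIC groups. In each comparison with TBHQ, the agent and its solvent therefore cannot be told apart. All results come from this 1 transformed line, and the study's methods name biological replicates while the labels do not state separate cultures, so p-values measure the spread between these libraries. In bulk RNA, fewer cells of a kind and less RNA per cell cannot be told apart.

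Between 14423390 and 18851626 fragments were counted on genes per library, with a median of 15742337 and the highest total in PIC replicate 3. Of 8 macrophage markers, *Lyz2* was the most abundant at 3399 to 4647 FPKM, and *Cd68* lay at 610 to 700, *Csf1r* at 81.5 to 175 and *Ptprc* at 12.5 to 20.9 FPKM. *Adgre1* ranged more widely, from 11.5 to 70.7 FPKM, as did *Itgam*, from 7.53 to 26.5, and *Fcgr1*, from 4.38 to 14.95. FPKM is the number of fragments scaled to gene length and library total, and in the authors' values also by a constant per library. That constant follows the condition, from 0.943 to 0.951 in control, 0.945 to 0.954 in TBHQ, 0.992 to 0.999 in LPS + TBHQ, 1.005 to 1.015 in LPS, 1.051 to 1.056 in PIC + TBHQ and 1.112 to 1.116 in PIC. The summed level of these markers, most of it *Lyz2*, lay between 4247 and 5554 FPKM. *Mertk*, an engulfment receptor of mature macrophages, was at or near 0, with 5 counts at most. Fibroblast, B cell and epithelial markers were at or near 0, with summed levels of at most 0.122, 0.338 and 0.0279 FPKM. Among 5 T cell markers, *Lck* reached 2.12 to 4.90 FPKM, while *Cd3e* was at 0 counts in each library, and 3 counts or fewer are treated as not detected.

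Many short-lived messages of the immune response carry AU-rich elements, runs of A and U in the 3′ untranslated region, or small stem-loops there. Proteins of the Zfp36 family bind the AU-rich element and bring in the deadenylase that shortens the poly(A) tail, while Zc3h12a cuts stem-loop messages and Rc3h1 hands them to the same deadenylase. Khsrp and Hnrnpd bind AU-rich elements and mostly favour decay, whereas Elavl1 binds them and protects the message. In macrophages these proteins set how long cytokine messages persist after a stimulus.

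Members of the decay side moved in opposite directions. *Zfp36* and *Zc3h12a* rose with LPS and with PIC, *Zfp36l2* and *Zfp36l1* fell with both, and TBHQ before either stimulus brought *Zfp36* down and *Zfp36l2* up. Tests used the quasi-likelihood F-test of edgeR, adjusted by Benjamini and Hochberg's method over the 13691 genes, and a change is called at an adjusted p (FDR) below 0.05. Changes are given as log2FC, the log2 ratio of the first condition to the second, with the standard error (SE) of the difference from 3 libraries a condition. The 3 comparisons with the control share its libraries, and each comparison with TBHQ shares the stimulated libraries with that of its stimulus.

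With TBHQ alone, 5 of the 8 members were called, against 29.0% of all tested genes. Of these, 4 rose, a direction called in 14.2% of tested genes, and 1 fell, as did 14.8%. With LPS, 7 members were called beside a background of 48.1%, and 2 of them rose (24.0% of tested genes) and 5 fell (24.1%). With PIC, 6 members were called beside 58.7%, with 3 higher (28.6%) and 3 lower (30.1%). PIC against LPS gave 3 called members beside 27.7%, with 2 higher (14.9%) and 1 lower (12.8%). In LPS + TBHQ against LPS, 3 members were called beside 23.9%, with 1 higher (11.7%) and 2 lower (12.2%), a split that turns to 2 higher and 1 lower at total library size. In PIC + TBHQ against PIC, 5 were called beside 31.3%, with 2 higher (15.8%) and 3 lower (15.5%). The difference between the TBHQ effects in PIC and in LPS was called for 2 members beside 1.83% of tested genes, both lower in PIC (1.01%), with 0.825% of genes higher. That share stands for 251 genes, and the number was 403 in DESeq2 and 160 without LPS + TBHQ replicate 2. The median size of log2FC over the 8 members was 0.67 with PIC against 0.33 over all tested genes, 0.44 against 0.25 with LPS and 0.28 against 0.17 in PIC + TBHQ against PIC. It was close to that of all genes with TBHQ alone (0.18 against 0.16) and in PIC against LPS (0.17 against 0.16), and below it in LPS + TBHQ against LPS (0.12 against 0.14). For the difference between TBHQ effects it was 0.17 against 0.12.

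The study also applies a stricter limit, an FDR below 0.01 with a log2FC beyond 2 in either direction. In PIC against control it was met by 3.57% of tested genes and by 1 member, *Zfp36*. It was met by 1.64% of genes in LPS against control, where the largest member log2FC was 1.78, and by 0.190% in TBHQ against control, where the change largest in size was -0.76.

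**Figure D1:**
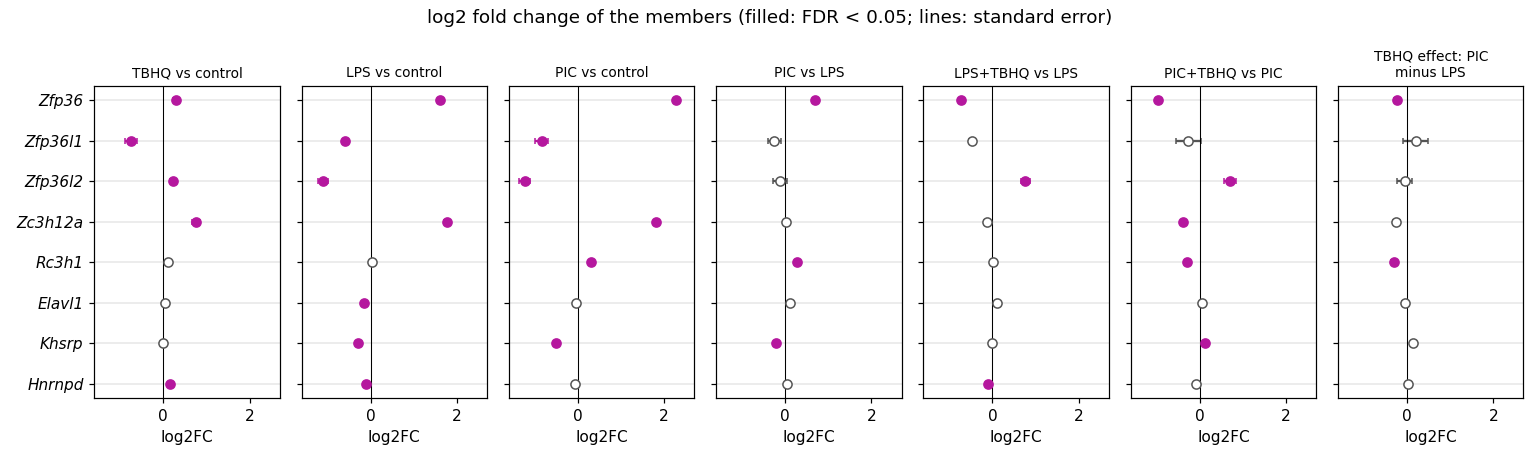
log2FC of the 8 members in the 7 comparisons (panels, log2 scale), with points for the estimate, lines for the SE and filled points for an FDR below 0.05. *Zfp36* reached 2.28 with PIC and fell by 0.96 in PIC + TBHQ against PIC, whereas *Zfp36l2* fell by 1.24 with PIC and rose by 0.70.

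*Zfp36* (ENSMUSG00000044786) encodes tristetraprolin, the founding member of the family and an early brake on *Tnf* mRNA. It stood at 19.7, 19.2 and 20.4 FPKM in the control libraries and at 22.2, 25.6 and 25.3 FPKM with TBHQ. With LPS the libraries held 63.2, 58.0 and 59.3 FPKM, and with LPS + TBHQ 37.4, 36.0 and 36.3 FPKM. With PIC they held 94.1, 96.4 and 101 FPKM, and with PIC + TBHQ 51.9, 49.4 and 47.4 FPKM. No library of 1 condition reached into the range of another, and the order from low to high was control, TBHQ, LPS + TBHQ, PIC + TBHQ, LPS and PIC. The rise was 3.03-fold with LPS (log2FC 1.60, SE 0.0425, FDR 4.0e-25 in edgeR) and 4.87-fold with PIC (2.28, SE 0.0388, FDR 2.5e-30). PIC exceeded LPS by 0.68 (SE 0.0457, FDR 7.4e-15). TBHQ alone raised it by 0.30 (SE 0.0683, FDR 1.6e-05), while TBHQ before the stimulus lowered it by a log2FC of -0.72 with LPS (SE 0.0384, FDR 4.5e-15) and -0.96 with PIC (SE 0.0479, FDR 7.6e-19). Of the mean increase over control, 41.6% was left in LPS + TBHQ and 38.5% in PIC + TBHQ.

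*Zfp36* fell further with TBHQ under PIC than under LPS, by a difference of -0.24 (SE 0.0614, FDR 0.0379 in edgeR). This difference was close to the limit. It reached an FDR below 0.05 in 16 of 27 alternatives, with adjusted p between 0.00319 and 0.120. The call was lost without LPS replicate 2 (0.0530), LPS replicate 3 (0.0626), PIC replicate 3 (0.0685), LPS + TBHQ replicate 1 (0.110), replicate 2 (0.0664) or replicate 3 (0.0630), and PIC + TBHQ replicate 2 (0.0701) or replicate 3 (0.120). It was also lost at total library size (0.0898) and in limma (0.0963 and 0.111).

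*Zfp36l2* (ENSMUSG00000045817), a relative of *Zfp36* with the same paired zinc fingers, moved the other way with LPS, with PIC and with TBHQ before either, but not with TBHQ alone. Control libraries held 41.0, 43.7 and 42.5 FPKM and TBHQ libraries 45.6, 50.2 and 52.4 FPKM. LPS left 17.2, 20.04 and 22.1 FPKM and LPS + TBHQ 32.6, 34.0 and 34.2 FPKM. PIC left 17.4, 15.8 and 21.3 FPKM and PIC + TBHQ 30.4, 26.9 and 31.1 FPKM. The LPS and PIC libraries overlapped each other and lay below every other library, and the TBHQ libraries were the highest. LPS lowered it to 0.464 of control (log2FC -1.11, SE 0.110, FDR 3.6e-15 in edgeR) and PIC to 0.425 (-1.24, SE 0.128, FDR 1.0e-16), while PIC against LPS gave -0.13 (SE 0.165, FDR 0.247). TBHQ before the stimulus raised it by 0.76 over LPS (SE 0.110, FDR 3.2e-10) and by 0.70 over PIC (SE 0.142, FDR 2.7e-09), and the TBHQ effects in PIC and LPS differed by -0.06 (SE 0.180, FDR 0.869). Of the mean decrease from control, 38.9% was left in LPS + TBHQ and 53.5% in PIC + TBHQ.

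With TBHQ alone, *Zfp36l2* rose by 0.22 (SE 0.0631, FDR 0.0138 in edgeR), but the FDR was 0.0990 in DESeq2 and 0.114 and 0.120 in limma, in a range of 4.3e-05 to 0.120 over 27 alternatives. It passed 0.05 without control replicate 1 (log2FC 0.20, FDR 0.0602), TBHQ replicate 2 (0.20, 0.0538) or TBHQ replicate 3 (0.17, 0.0967). In PIC against LPS a call appeared at total library size (log2FC -0.26, FDR 0.00883) and without LPS replicate 1 (-0.22, 0.0421) or PIC replicate 3 (-0.26, 0.00997), in a range of 0.00883 to 0.816. With 1 library left out, log2FC in PIC against LPS ran from -0.26 to -0.0344.

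*Zfp36l1* (ENSMUSG00000021127), the third family member in these cells, was the least abundant of the 8 genes. It had 2.53, 2.59 and 2.28 FPKM in control, from 115 to 126 counts, and 1.31, 1.33 and 1.73 FPKM with TBHQ. LPS libraries held 1.72, 1.61 and 1.61 FPKM and PIC libraries 1.32, 1.16 and 1.66 FPKM. With TBHQ before the stimulus it was at 1.22, 1.09 and 1.26 FPKM under LPS and at 0.936, 0.918 and 1.56 FPKM under PIC. Control lay above every treated library, and neighbouring treated groups overlapped. It fell with TBHQ alone (log2FC -0.76, SE 0.136, FDR 8.6e-04 in edgeR), LPS (-0.59, SE 0.0634, FDR 0.00511) and PIC (-0.84, SE 0.157, FDR 1.1e-04). On log2(FPKM + 1) in limma, a scale that understates the change of low genes, these were -0.50, -0.39 and -0.55, each still called.

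LPS + TBHQ against LPS gave *Zfp36l1* a log2FC of -0.47 (SE 0.0685, FDR 0.0692 in edgeR), and the FDR was 0.0428 without PIC + TBHQ replicate 3, in a range of 0.0428 to 0.189. PIC + TBHQ against PIC gave -0.27 (SE 0.285, FDR 0.334), where the same library, at 1.56 FPKM, stood apart, and without it log2FC was -0.58 and FDR 0.0399, in a range of 0.0399 to 0.756. With 1 library left out, this log2FC ran from -0.58 to -0.115. PIC against LPS was -0.25 (SE 0.149, FDR 0.358), and -0.415 to -0.139 with 1 library left out. The values of this gene are uncertain, since 54.4% of its 50-base words also occur, on either strand, in other transcripts of GENCODE M21, 51.3% in *Gm26669*. In the positions of the count table no gene overlaps *Zfp36l1*. How the authors' counting shared such reads is not given in the sources used here.

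The make-up of the family changed with the stimulus. *Zfp36* made up 31.1%, 29.3% and 31.3% of the summed FPKM of the 3 genes in the control libraries and 32.1%, 33.2% and 31.8% with TBHQ. It made up 77.0%, 72.8% and 71.4% with LPS, and 52.5%, 50.6% and 50.6% with LPS + TBHQ. With PIC the shares were 83.4%, 85.1% and 81.6%, and with PIC + TBHQ 62.4%, 64.0% and 59.2%. All unstimulated libraries lay below all stimulated ones, and each stimulus alone lay above the same stimulus after TBHQ. *Zfp36l2* held the rest almost entirely, at a mean of 65.6% (SD 0.980, n = 3) in control, 24.2% (SD 2.96) with LPS and 15.5% (SD 1.61) with PIC. The summed family level was 64.6 FPKM (SD 1.21) in control, 75.2 (SD 5.37) with TBHQ, 81.6 (SD 1.76) with LPS and 117 (SD 6.44) with PIC. It was 71.4 FPKM (SD 0.332) in LPS + TBHQ and 80.2 (SD 3.00) in PIC + TBHQ. These shares are sums of mRNA levels, and protein levels were not analysed here.

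**Figure D2:**
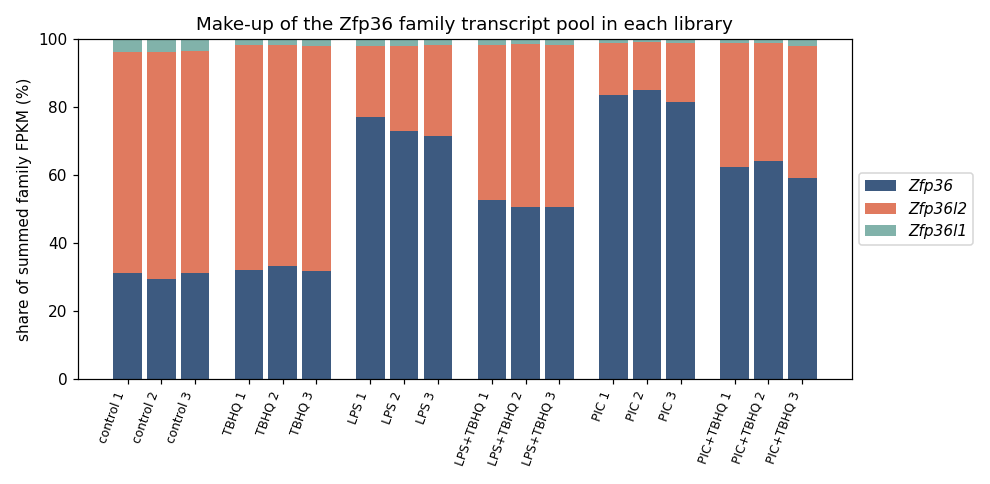
Share of the summed FPKM of *Zfp36*, *Zfp36l1* and *Zfp36l2* (vertical axis, percent) in each of the 18 libraries (bars), stacked by gene. The *Zfp36* part lies between 29.3% and 33.2% in control and TBHQ libraries and between 81.6% and 85.1% in PIC libraries.

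*Zc3h12a* (ENSMUSG00000042677) encodes Regnase-1, an endonuclease that cuts stem-loops in messages such as *Il6* while they are translated. Control libraries held 8.32, 7.52 and 7.91 FPKM and TBHQ libraries 11.9, 13.6 and 14.5 FPKM. LPS libraries held 29.0, 25.3 and 27.5 FPKM and LPS + TBHQ libraries 25.0, 23.6 and 26.0 FPKM. PIC libraries held 28.9, 27.1 and 28.0 FPKM and PIC + TBHQ libraries 22.1, 21.4 and 20.5 FPKM. LPS, PIC and LPS + TBHQ were highest, with LPS overlapping both others, then PIC + TBHQ, TBHQ and control without overlap. LPS raised it 3.43-fold (log2FC 1.78, SE 0.0689, FDR 1.5e-22 in edgeR) and PIC 3.50-fold (1.81, SE 0.0503, FDR 3.5e-23), with a difference between them of 0.03 (SE 0.0609, FDR 0.747). TBHQ alone raised it 1.68-fold (0.75, SE 0.0905, FDR 1.2e-10), the largest rise of a member in that comparison. TBHQ before PIC lowered it (-0.38, SE 0.0420, FDR 2.5e-06), leaving 66.8% of the increase. Before LPS the value was -0.13 (SE 0.0679, FDR 0.0877), leaving 87.6%, and the FDR was 0.0311 without LPS replicate 2, in a range of 0.0311 to 0.367. The TBHQ effects in PIC and LPS differed by -0.25 (SE 0.0799, FDR 0.120), so they are not shown to differ.

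*Rc3h1* (ENSMUSG00000040423) encodes Roquin-1, which recognises stem-loops in messages such as *Icos* and *Tnf*. Control libraries held 9.75, 9.93 and 10.6 FPKM and TBHQ libraries 11.1, 10.8 and 10.7 FPKM. LPS libraries held 10.5, 10.5 and 10.2 FPKM and LPS + TBHQ libraries 10.5, 11.1 and 10.2 FPKM. PIC libraries held 12.9, 12.3 and 12.9 FPKM and PIC + TBHQ libraries 10.7, 10.4 and 9.86 FPKM. PIC alone stood above all other libraries, and the other 5 conditions overlapped along their order. *Rc3h1* rose with PIC by 0.31 over control (SE 0.0426, FDR 7.5e-08 in edgeR) and by 0.28 over LPS (SE 0.0268, FDR 4.5e-06), and fell in PIC + TBHQ against PIC (-0.29, SE 0.0400, FDR 1.5e-06). In LPS + TBHQ against LPS the value was 0.02 (SE 0.0373, FDR 0.790), and the TBHQ effects in PIC and LPS differed by -0.31 (SE 0.0547, FDR 0.00218), a call that was kept in each of 27 alternatives with adjusted p from 5.4e-05 to 0.0200. LPS against control gave 0.04 (SE 0.0384, FDR 0.500).

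The rise of *Rc3h1* with PIC over control depends on the scaling. At total library size, where the median of all genes shifts by -0.22 in PIC against control and by -0.13 in PIC against LPS, the log2FC was 0.10 with an FDR of 0.0526, in a range of 1.4e-12 to 0.0526 over the alternatives. Relative to the all-gene median of -0.23 under that scaling, *Rc3h1* still lay higher. Its log2FC over LPS was 0.15 there. With TBHQ alone it was 0.11 (SE 0.0398, FDR 0.0592), and the FDR was 0.0486 with RLE size factors, 0.0489 in DESeq2, 0.0384 among genes with a mean of at least 50 counts, 0.0259 without control replicate 3 and 0.0495 without PIC replicate 3, in a range of 0.0259 to 0.231.

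**Figure D3:**
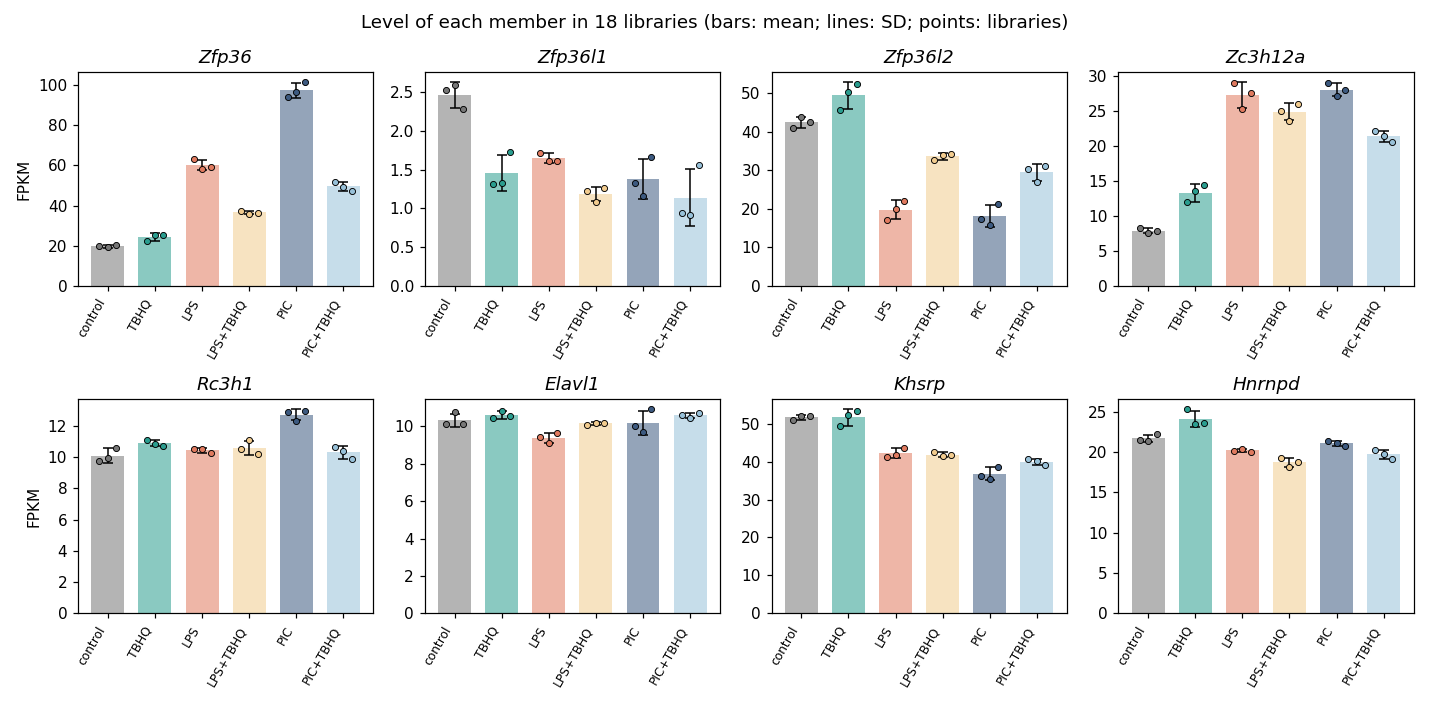
FPKM (vertical axis, from 0) of each member in the 6 conditions, with points for libraries, bars for the mean of 3 and lines for the SD. *Zfp36* runs from a mean of 19.7 in control to 97.3 with PIC, *Zfp36l2* from 49.4 with TBHQ to 18.1 with PIC, and *Elavl1* from 9.38 with LPS to 10.6 with TBHQ.

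*Khsrp* (ENSMUSG00000007670), whose KH domains bind AU-rich elements and bring in the exosome, was the most abundant member in control. It was at 50.9, 52.0 and 52.0 FPKM in control and at 49.3, 52.2 and 53.5 FPKM with TBHQ. LPS libraries held 41.3, 41.6 and 43.7 FPKM and PIC libraries 36.2, 35.5 and 38.7 FPKM. After TBHQ the values were 42.5, 41.4 and 41.8 FPKM with LPS and 40.6, 40.3 and 39.1 FPKM with PIC. Both stimuli lay below control without overlap, PIC lowest. It fell with LPS (log2FC -0.30, SE 0.0269, FDR 4.4e-08 in edgeR) and further with PIC (-0.51, SE 0.0377, FDR 1.1e-13), and PIC against LPS was -0.21 (SE 0.0444, FDR 9.7e-05), or -0.34 at total library size. TBHQ alone gave -0.002 (SE 0.0346, FDR 0.977) and LPS + TBHQ against LPS -0.01 (SE 0.0275, FDR 0.861). In PIC + TBHQ against PIC it rose by 0.13 (SE 0.0398, FDR 0.0101, in a range of 1.1e-04 to 0.128), or 0.20 at total library size. That call was lost without PIC replicate 1 (0.10, FDR 0.0894), PIC replicate 2 (0.09, 0.128) or PIC + TBHQ replicate 1 (0.11, 0.0587). The TBHQ effects in PIC and LPS differed by 0.14 (SE 0.0484, FDR 0.198).

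*Hnrnpd* (ENSMUSG00000000568) encodes AUF1, one of the first AU-rich binding proteins described, which can speed or slow decay depending on the message. Control libraries held 21.5, 21.4 and 22.2 FPKM and TBHQ libraries 25.3, 23.5 and 23.7 FPKM. LPS libraries held 20.2, 20.4 and 20.04 FPKM and LPS + TBHQ libraries 19.3, 18.2 and 18.8 FPKM. PIC libraries held 21.4, 21.1 and 20.8 FPKM and PIC + TBHQ libraries 20.3, 19.7 and 19.1 FPKM. TBHQ alone was highest and apart from control. LPS + TBHQ and PIC + TBHQ had the lowest means and overlapped, and PIC + TBHQ also overlapped LPS. It rose with TBHQ alone (log2FC 0.15, SE 0.0388, FDR 0.00303 in edgeR), the only change of this gene that each of 27 alternatives called. It fell with LPS (-0.11, SE 0.0177, FDR 0.0164, in a range of 5.5e-05 to 0.0852, and -0.20 at total library size), a call lost without control replicate 3 (-0.10, FDR 0.0852) or LPS replicate 3 (-0.10, 0.0784). PIC against control was -0.06 (SE 0.0205, FDR 0.186), but -0.28 with an FDR of 1.4e-07 at total library size, in a range of 1.4e-07 to 0.526.

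After TBHQ, *Hnrnpd* fell in LPS + TBHQ against LPS by a log2FC of -0.11 (SE 0.0258, FDR 0.0395 in edgeR), which 19 of 27 alternatives called, with adjusted p from 0.0242 to 0.200. The call was lost without LPS replicate 1 (FDR 0.0744), replicate 2 (0.110) or replicate 3 (0.0597), without LPS + TBHQ replicate 2 (0.186) or replicate 3 (0.0840), at total library size (0.123), with no filter on low counts (0.200) and in a fit of the compared conditions only (0.0631). PIC + TBHQ against PIC gave -0.09 (SE 0.0278, FDR 0.0971), and the FDR was 0.0339 among genes with a mean of at least 50 counts, 0.0474 with RLE size factors, 0.0479 in DESeq2 and 0.0440 and 0.0444 in limma, in a range of 0.0339 to 0.785. Over the alternatives that log2FC ran from -0.112 to -0.017. PIC against LPS was 0.05 (SE 0.0154, FDR 0.362), and the TBHQ effects in PIC and LPS differed by 0.02 (SE 0.0379, FDR 0.904).

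*Elavl1* (ENSMUSG00000040028) encodes HuR, the protector among the 8, and its mRNA level in FPKM varied least of them. Control libraries held 10.1, 10.7 and 10.1 FPKM and TBHQ libraries 10.4, 10.8 and 10.6 FPKM. LPS libraries held 9.43, 9.08 and 9.63 FPKM and LPS + TBHQ libraries 10.1, 10.2 and 10.2 FPKM. PIC libraries held 10.0, 9.68 and 10.9 FPKM and PIC + TBHQ libraries 10.6, 10.5 and 10.7 FPKM. LPS lay below all other libraries, and the other 5 conditions overlapped along their order. The highest mean was 1.13 times the lowest, against 1.26 times for *Rc3h1* and 4.93 times for *Zfp36*. This order depends on the scaling, since at total library size *Elavl1* changed by -0.23 with LPS and -0.25 with PIC, and *Rc3h1* by -0.05 and 0.10. It fell with LPS (log2FC -0.15, SE 0.0374, FDR 0.00636 in edgeR, in a range of 3.0e-05 to 0.0626, and -0.23 at total library size), a call lost without control replicate 2 (-0.12, FDR 0.0557) or LPS replicate 2 (-0.11, 0.0626).

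No other comparison called *Elavl1* in edgeR. TBHQ alone gave 0.04 (SE 0.0337, FDR 0.575) and PIC against control -0.03 (SE 0.0583, FDR 0.549), or -0.25 with an FDR of 5.6e-06 at total library size, in a range of 5.6e-06 to 0.965. PIC against LPS gave 0.11 (SE 0.0554, FDR 0.0553, in a range of 0.0189 to 0.803), with an FDR of 0.0345 with RLE size factors, 0.0367 in DESeq2, 0.0360 among genes with a mean of at least 50 counts, 0.0471 without LPS replicate 3 and 0.0189 without PIC replicate 2. That log2FC ran from 0.0635 to 0.1521 with 1 library left out. LPS + TBHQ against LPS gave 0.11 (SE 0.0239, FDR 0.0603, in a range of 0.0188 to 0.210), with an FDR of 0.0394 without PIC replicate 3 and a call at total library size (0.14, FDR 0.0188). PIC + TBHQ against PIC gave 0.06 (SE 0.0515, FDR 0.304, in a range of 0.0178 to 0.888), with a call at total library size (0.13, FDR 0.0178). There log2FC ran from 0.0119 to 0.1004 with 1 library left out. The TBHQ effects differed by -0.05 (SE 0.0568, FDR 0.789). The FPKM ratio of *Zfp36* to *Elavl1* was 1.92 in control (SD 0.118, n = 3), 2.29 with TBHQ (SD 0.143), 6.42 with LPS (SD 0.268) and 9.55 with PIC (SD 0.360). It was 3.60 in LPS + TBHQ (SD 0.1003) and 4.69 in PIC + TBHQ (SD 0.237).

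The stated scaling matters for how these calls divide. At total library size in place of TMM, the share of higher calls among all called genes went from 49.8% to 35.0% with LPS, from 48.7% to 26.4% with PIC and from 53.7% to 18.4% in PIC against LPS. It went from 48.9% to 59.5% in LPS + TBHQ against LPS, from 50.6% to 70.3% in PIC + TBHQ against PIC and from 45.0% to 76.1% for the difference between TBHQ effects. Among the members, total library size gave 2 higher of 7 called with PIC, 2 of 4 in PIC against LPS, 2 of 3 in LPS + TBHQ against LPS and 3 of 6 in PIC + TBHQ against PIC. No called member changed direction under RLE size factors or total library size.

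Genes that work with the members were followed in 5 lists, and known target messages in another. Their counts of called genes stand beside shares over all tested genes of 29.0% with TBHQ alone, 48.1% with LPS, 58.7% with PIC, 27.7% in PIC against LPS, 23.9% in LPS + TBHQ against LPS, 31.3% in PIC + TBHQ against PIC and 1.83% for the difference between TBHQ effects. Zfp36 is held inactive when the p38 kinase and its partner MK2 phosphorylate it. In that axis 17 of 18 genes were tested, and 10 rose and 5 fell with PIC, with a median log2FC of 0.22 beside -0.01 over all tested genes. At total library size 5 rose and 7 fell. *Dusp1*, a phosphatase that switches p38 off, went from 6.52 to 27.2 FPKM with LPS (log2FC 2.05, SE 0.0630, FDR 2.1e-24 in edgeR) and to 49.5 FPKM with PIC (2.90, SE 0.0690, FDR 8.1e-30). TBHQ lowered it under LPS (-0.65, SE 0.0545, FDR 2.9e-11) and PIC (-0.83, SE 0.0582, FDR 6.7e-15). *Mapkapk2*, which encodes MK2, rose with PIC (1.11, SE 0.0349, FDR 2.8e-25), fell in PIC + TBHQ against PIC (-0.26, SE 0.0262, FDR 7.8e-08) and was the 1 gene of this list whose TBHQ effects in PIC and LPS differed (-0.24, SE 0.0357, FDR 0.00227). *Tab1*, a partner of kinases upstream of p38, fell with LPS (-0.40, SE 0.0885, FDR 3.3e-04) and PIC (-0.74, SE 0.10, FDR 1.5e-08). Of the 17 genes, 6 rose and 1 fell with TBHQ alone, 6 rose and 3 fell with LPS (3 and 6 at total library size), and 8 were higher and 2 lower in PIC than in LPS (3 and 5). TBHQ raised 2 and lowered 3 under LPS (3 and 2 at total library size). Under PIC it raised 5 and lowered 5 (7 and 2 at total library size, 3 and 5 with RLE size factors).

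Deadenylation, the step that Zfp36 proteins and Rc3h1 start, was covered by 22 tested genes of the CCR4-NOT complex and its partners. PIC raised 10 and lowered 5, or 7 and 11 at total library size, beside 58.7% of all tested genes called, and LPS raised 9 and lowered 5, or 5 and 9, beside 48.1%. PIC + TBHQ against PIC gave 1 higher and 11 lower (4 and 6 at total library size), with a median of -0.13 beside 0.01 over all tested genes. LPS + TBHQ against LPS gave 2 higher and 5 lower, PIC against LPS 8 called, each higher (3 higher and 6 lower at total library size), and TBHQ alone 7 higher and 3 lower. *Btg1*, an activator of the deadenylase, rose with PIC from 22.9 to 54.0 FPKM (log2FC 1.22, SE 0.0443, FDR 1.2e-24 in edgeR) and fell in PIC + TBHQ against PIC (-0.46, SE 0.0346, FDR 4.6e-12). *Btg2*, its relative, rose with PIC (1.32, SE 0.109, FDR 1.4e-15) and fell after TBHQ (-0.54, SE 0.0764, FDR 2.0e-06). *Cnot6l*, a catalytic subunit, fell with LPS (-0.28, SE 0.0730, FDR 1.0e-04) and PIC (-0.34, SE 0.0331, FDR 4.2e-06). *Cnot7*, another catalytic subunit, was higher in PIC than in LPS (0.33, SE 0.0466, FDR 7.1e-06) and fell in PIC + TBHQ against PIC (-0.44, SE 0.0493, FDR 2.1e-08).

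Behind deadenylation stand decapping with decay from the 5′ end and the exosome, which degrades from the 3′ end. All 19 decapping genes were tested, and PIC raised 5 and lowered 8 (1 and 13 at total library size) beside 58.7% of all tested genes called, while LPS raised 2 and lowered 8 (10 called, each lower, at total library size) beside 48.1%. *Lsm2*, *Lsm3* and *Lsm5*, parts of the ring that binds the shortened tail, fell with both stimuli. With LPS they were at log2FC -0.84 (SE 0.0874, FDR 8.4e-13 in edgeR), -0.75 (SE 0.0470, FDR 5.5e-10) and -1.01 (SE 0.0865, FDR 7.4e-08), and with PIC at -0.77 (SE 0.0527, FDR 3.6e-12), -0.90 (SE 0.0533, FDR 5.0e-12) and -0.96 (SE 0.198, FDR 9.4e-08). *Ddx6*, a helicase of decapping, rose with PIC (0.42, SE 0.0232, FDR 6.0e-12). TBHQ alone raised 3 and lowered 2, and PIC against LPS gave 2 called, each higher (1 higher and 4 lower at total library size). LPS + TBHQ against LPS gave 1 higher and 3 lower (3 and 2 at total library size), and PIC + TBHQ against PIC 1 higher and 6 lower (3 and 4). For 1 decapping gene, *Ddx6*, the TBHQ effects in PIC and LPS differed (-0.21, SE 0.0440, FDR 0.0292 in edgeR). That call was made in 21 of 27 alternatives and was lost at total library size (FDR 0.0937). Of 16 tested exosome genes, LPS raised 1 and lowered 9 (11 called, each lower, at total library size) beside 48.1%, and PIC raised 2 and lowered 10 (1 and 14) beside 58.7%, with a median of -0.26 beside -0.01 over all tested genes. PIC against LPS gave 2 higher and 4 lower, but 9 called at total library size, each lower. TBHQ alone and LPS + TBHQ against LPS each gave 1 called, which was higher. PIC + TBHQ against PIC gave 2 called, each higher, against 4 higher at total library size and 1 higher and 1 lower with RLE size factors. *Exosc8*, a core subunit, went from 13.9 to 6.59 FPKM with PIC (-1.09, SE 0.0734, FDR 9.3e-16).

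Among 29 tested relatives and partners of the members, TBHQ alone raised 9 and lowered 4, LPS raised 9 and lowered 13, and PIC raised 11 and lowered 8 (5 and 17 at total library size). PIC against LPS gave 10 higher and 3 lower (2 and 7 at total library size), LPS + TBHQ against LPS 6 and 6, and PIC + TBHQ against PIC 7 and 9 (8 and 4 at total library size). *Zc3h12c*, a relative of *Zc3h12a*, rose with TBHQ alone from 11.1 to 18.2 FPKM (log2FC 0.71, SE 0.0477, FDR 8.1e-14 in edgeR), with LPS (0.94, SE 0.0761, FDR 4.3e-18) and with PIC (1.10, SE 0.0520, FDR 1.4e-20). *Igf2bp2*, an mRNA-binding relative that favours stability, rose with LPS (1.10, SE 0.0470, FDR 2.9e-23) and PIC (1.02, SE 0.0303, FDR 1.2e-22). *Celf2*, a binder of GU-rich elements, had the lowest log2FC among called genes of the list with a mean of at least 50 counts, with LPS (-0.74, SE 0.0479, FDR 6.8e-13) and PIC (-0.71, SE 0.0798, FDR 8.8e-13), followed by *Hnrnpa0*, an AU-rich binder (-0.60, SE 0.176, FDR 9.3e-08, and -0.63, SE 0.103, FDR 2.0e-08). *Arid5a*, which protects stem-loop messages from Regnase-1, rose with LPS (1.17, SE 0.108, FDR 1.3e-09) and fell in LPS + TBHQ against LPS (-0.53, SE 0.133, FDR 8.6e-04). *Upf1*, the helicase that works with Regnase-1, rose with TBHQ alone (0.41, SE 0.0578, FDR 1.6e-08). *Rc3h2*, the closest relative of *Rc3h1*, fell in PIC + TBHQ against PIC (-0.45, SE 0.0563, FDR 5.5e-07), and its TBHQ effects in PIC and LPS differed (-0.45, SE 0.0978, FDR 0.00247, in a range of 1.4e-05 to 0.0817, with limma at 0.0614 and 0.0817).

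Of 26 transcripts known to be bound by Zfp36, Zc3h12a or Rc3h1, 21 were tested. LPS raised 18 and lowered 1, and PIC raised 18 and lowered 1, with medians of 2.56 and 3.51 when the 4 genes whose control was at or under 3 counts are put at their lower bound. Those 4, which include *Il1b* and *Il1a*, passed the count filter only through other conditions, so their rise over control follows from that filter. They were not taken out of these counts. After TBHQ, 1 rose and 15 fell under LPS and 1 rose and 16 fell under PIC, with medians of -0.54 and -0.80 beside 0.00 and 0.01 over all tested genes. TBHQ alone raised 12 and lowered 1. Its median was 0.55, or 0.45 when the 3 genes with a higher level whose control was at or under 3 counts are put at their bound. Those 3 did not pass the count filter through the control. PIC against LPS gave 17 higher and 2 lower. For 7 of the 21 the TBHQ effects in PIC and LPS differed, each lower in PIC. *Tnf*, the classic Zfp36 target, differed by -0.58 (SE 0.0534, FDR 1.8e-08 in edgeR) and *Ptgs2*, the inducible prostaglandin synthase, by -0.42 (SE 0.102, FDR 1.3e-04). *Il6*, cut by Regnase-1, fell from 18.7 to 5.17 FPKM in PIC + TBHQ against PIC (log2FC -1.85, SE 0.112, FDR 4.8e-17). *Il1b*, encoding a fever cytokine, fell from 44.9 to 5.64 FPKM under LPS (-2.9951, SE 0.177, FDR 8.0e-21) and from 128 to 13.9 FPKM under PIC (-3.19, SE 0.116, FDR 4.4e-23). *Fos*, an early-response gene with an AU-rich element, fell with LPS (-0.67, SE 0.0194, FDR 8.6e-09) and PIC (-0.80, SE 0.148, FDR 9.9e-11). Message half-lives were not analysed here, so synthesis and decay cannot be told apart for any of these levels.

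The genes whose log2 level followed a member most closely over the 18 libraries are given as a description, from 10450 genes, and the libraries share their conditions. *Zfp36* was followed by *Mdm2* (Pearson r 0.995), *Pcdh7* (0.990) and *Itga5* (0.990). *Mdm2* had means of 33.7 FPKM in control, 40.5 in TBHQ, 88.1 in LPS and 53.3 after TBHQ there, 138 in PIC and 74.4 after TBHQ there. *Zfp36l2* was followed by *Tspan4* (0.981), *Fads2* (0.978) and *Calhm2* (0.978), and *Zc3h12a* by *Mthfd2* (0.980), *Slc7a1* (0.978) and *Cd36* (0.974). *Khsrp* was followed by *Tpcn1* (0.981), *Pik3cd* (0.978) and *Cbx3* (0.975), and *Hnrnpd* by *Nsun2* (0.945), *Pmepa1* (0.932) and *Pspc1* (0.932). *Elavl1*, *Zfp36l1* and *Rc3h1* had looser matches, led by *Arpc4* (0.888), *Commd1* (0.908) and *Ddx6* (0.864).

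RefSeq promoters on build GRCm38.p6 were found for 7 of the 8 members, and no entry for *Zfp36l2*. In the 250 bases before each start, 6 motifs were searched on both strands: κB, a 10-letter motif bound by NF-κB, the AP-1 motif TGANTCA, the GAS motif TTCNNNGAA bound by STAT factors, the antioxidant response element core TGACNNNGC, the CRE motif TGACGTCA and CArG, bound by serum response factor. Over 32851 promoters of the same length, these letters occur in 7.25%, 6.75%, 7.02%, 10.2%, 1.55% and 1.47%. *Zfp36*, the member that moved most, has a CArG match at chr7:28379277-28379286 and a GAS match at chr7:28379237-28379245, 48 and 8 bases before the start. *Zfp36l1* and *Rc3h1* each have an AP-1 match, and the letters of the κB, CRE and antioxidant response motifs are not in these windows of the 7 members. The *Zfp36* promoter at chr7:28379229-28379478 (minus strand) is shown because this gene carries the largest change, with both matches in capitals. A match describes letters, not binding.
Zfp36 promoter: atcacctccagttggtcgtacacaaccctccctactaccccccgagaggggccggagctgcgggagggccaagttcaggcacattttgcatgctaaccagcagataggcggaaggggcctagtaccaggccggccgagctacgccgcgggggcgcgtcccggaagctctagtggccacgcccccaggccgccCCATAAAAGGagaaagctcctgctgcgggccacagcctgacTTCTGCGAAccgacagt

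Several members carry in their own 3′ untranslated region the letters that Zfp36 proteins bind. The heptamer TATTTAT occurs 3 times in *Zfp36* (774 bases), 3 times in *Zfp36l1* (1835 bases) and 3 times in *Zfp36l2* (1822 bases) in GENCODE M21. Among tested genes with a region of similar length, 0.962%, 3.68% and 3.70% have as many or more, and the median is 0. *Elavl1* (4218 bases) has 8, close together, and 0.107% of regions of like length have as many or more. *Rc3h1* (7181 bases) has 2, and 45.5% have as many or more. *Zc3h12a*, *Khsrp* and *Hnrnpd* do not have these letters there. The longer TTATTTATT occurs once in each family gene, against 5.01%, 9.50% and 9.39% of regions of like length that hold it at all, and once in *Rc3h1*, against 23.8%. Its 30-base surroundings are shown for the family and for *Elavl1*, the member richest in it. Copies that lie fully within the 30 bases are in capitals. The positions are chr7:28376950-28376979, chr12:80108166-80108195, chr17:84184913-84184942 and chr8:4285787-4285816 on the minus strand of GRCm38. The *Elavl1* stretch holds overlapping copies, and its last letters, in lower case, belong to a further copy that runs past it. In all, the 8 copies of TTATTTATT in *Elavl1* start between bases 3794 and 3840 of its region. They and the heptamers within them are thus in part overlapping letters of a short stretch.
Zfp36: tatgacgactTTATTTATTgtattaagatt
Zfp36l1: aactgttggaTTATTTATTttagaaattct
Zfp36l2: actatttaacTTATTTATTatcttgtgaaa
Elavl1: gtcatgaaaaTTATTTATTTATTTATTtat

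In the count table the members lie on chromosomes 7 (*Zfp36*, start 28076209), 12 (*Zfp36l1*, 80154528), 17 (*Zfp36l2*, 84491359, and *Khsrp*, 57328051), 4 (*Zc3h12a*, 125012216), 1 (*Rc3h1*, 160733988), 8 (*Elavl1*, 4335382) and 5 (*Hnrnpd*, 100103794). All but *Rc3h1* are on the minus strand. The build is given under a double name, GRCm38/mm39, and none of these starts is that of GRCm38, so table positions and sequence positions are not interchangeable. *Elavl1* overlaps *Ccl25* on the other strand, which had a mean of 129 counts, and *Hnrnpd* overlaps *Gm17092*, with 25.8. The study's methods describe the libraries as strand-specific, while the labels name directional as well as non-directional preparation, and the strand option of the counting is not given in the sources used here, so whether reads of such pairs were counted apart is not known. Words of 50 bases shared with other genes make up 5.06% of *Hnrnpd*, 4.21% of *Zfp36*, 1.89% of *Khsrp*, 1.61% of *Zfp36l2*, 1.5% of *Elavl1*, all of it shared with *Ccl25*, and 0.177% of *Zc3h12a*.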

How the data were processed

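Gene expression of 18 libraries of the RAW264.7 macrophage line, 3 for each of 6 conditions, was measured by poly(A) RNA sequencing. The authors deposited counts per gene without normalization, and the submitters' processing notes name HISAT2 2.0.5, StringTie 1.3.3b and featureCounts 1.5.0-p3. The authors also deposited FPKM, which they scaled by library total and gene length and which carries a further constant per library that follows the condition, from 0.943 in control to 1.116 in PIC. The gene length in bases that the authors list was not used in any test.

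Counts were tested with edgeR 4.0.16 in R 4.3.3 (filterByExpr, TMM, glmQLFit and glmQLFTest, 1 coefficient per condition, Benjamini-Hochberg adjustment over 13691 genes). Standard errors come from log2 CPM (counts scaled to library size) with a prior count of 2. Levels are FPKM. Alternatives were RLE size factors, total library size, DESeq2 1.42.0, limma 3.58.1 on log2(FPKM + 1) or log2(FPKM + 0.1), no filter or a mean of at least 50 counts, the compared conditions only, a factor for the replicate number, different thresholds and leaving out each library. Where 27 alternatives are counted for a result, all at an FDR below 0.05, the different thresholds are not among them. The code was tested on simulated data. Sequences and figures were handled with Python 3.11.15, pandas 2.3.3, numpy 2.4.6 and matplotlib 3.10.9.

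Of the 6 lists (137 genes, 134 listed in the table), genes could be named if they were among the 3 highest or 3 lowest by log2FC of the called genes per list and comparison, with a mean of at least 50 counts. Which of these are named was chosen after their values were seen. The 3 genes most like a member could be named too. The members and lists were chosen with earlier results of these data known.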

Additional observations from a re-analysis of the deposited data

Results flagged for a closer look

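In *Zfp36* the effect of TBHQ differed between the stimuli: log2FC after TBHQ was -0.96 under PIC and -0.72 under LPS, a difference of -0.24 (SE 0.0614, FDR 0.0379 in edgeR). In *Rc3h1* log2FC after TBHQ was -0.29 under PIC and 0.02 under LPS, a difference of -0.31 (SE 0.0547, FDR 0.00218 in edgeR). Both were picked out because the test of the difference itself passed an FDR of 0.05. The first was not called in 11 of 27 alternatives and the second was called in each of the 27.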

How the results depend on the processing

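Over all alternatives, 1505 member results kept their direction and call, 68 were weaker, 26 stronger and 25 reversed. None of the reversed member results was called as reported, and the largest of them in size was *Zfp36l1* for the difference between TBHQ effects, at 0.20. For *Khsrp* with TBHQ alone, the log2FC of -0.002 became 0.003 with RLE size factors, 0.0029 in DESeq2, 0.0034 at a mean of at least 50 counts and -0.0267 to 0.0296 with 1 library left out. At total library size, *Rc3h1* with LPS was -0.0502, *Khsrp* in LPS + TBHQ against LPS 0.0118, and in PIC against LPS *Zc3h12a* was -0.099, *Elavl1* -0.0164 and *Hnrnpd* -0.0773. With no filter, *Khsrp* in LPS + TBHQ against LPS was 0.0019. With 1 library left out, values ran from -0.0708 to 0.0182 for *Elavl1* with PIC, from -0.0159 to 0.0751 for *Zc3h12a* in PIC against LPS, and in LPS + TBHQ against LPS from -0.0308 to 0.012 for *Khsrp* and from -0.0115 to 0.0482 for *Rc3h1*. For the difference between TBHQ effects they ran from -0.1641 to 0.0629 for *Zfp36l2*, from -0.0029 to 0.0433 for *Hnrnpd* and from -0.1054 to 0.3547 for *Zfp36l1*. At total library size with PIC, *Xrn1* was -0.0463 (FDR 0.472, in a range of 0.00207 to 0.472) and *Exosc10* -0.1114 (FDR 0.0248, in a range of 0.00817 to 0.230), both of which were called higher as reported, at 0.17 (FDR 0.00730) and 0.11 (FDR 0.0376).

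Under an FDR below 0.01 with a log2FC beyond 2, the genes called were 26 with TBHQ, 224 with LPS, 489 with PIC, 42 in PIC against LPS, 53 in LPS + TBHQ against LPS and 41 in PIC + TBHQ against PIC, and 1 member with PIC, *Zfp36*. The number of members was 0 with TBHQ, 0 with LPS, 0 in PIC against LPS, 0 in LPS + TBHQ against LPS and 0 in PIC + TBHQ against PIC by edgeR, since no member log2FC there went beyond 2, and for the difference between TBHQ effects 0 genes and 0 members met it. At an FDR below 0.01 alone, LPS + TBHQ against LPS had 2178 genes, and the difference between TBHQ effects 115 genes and 1 member. At an FDR below 0.05 that difference gave 251 genes as reported, 403 in DESeq2, 380 with no filter, 147 in limma on log2(FPKM + 0.1) and 160 to 354 with 1 library left out, lowest without LPS + TBHQ replicate 2. Its members fell from 2 to 1 at total library size, in both limma fits and without 8 of the libraries. With the replicate number as a factor all member calls were the same. Pairs of libraries with the same number had r of -0.0444 to 0.0645 after the condition means were removed, and other pairs -0.0518 to 0.051.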
